A study of Mus musculus with 20 samples.

Results

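The macrophage marker genes described here are 10 genes of the mouse that are used to recognise macrophages in tissue, namely Cd68, Adgre1, Csf1r, Tyrobp, Lyz2, Ctss, Mrc1, Cd163, Itgax and Lgals3. They were chosen by name, and all 10 symbols were found among the 55401 genes of the count matrix. RNA of the gastrocnemius muscle, the large muscle of the calf, had been sequenced in 20 C57BL/6 mice aged 24 months. Of these, 10 mice had received HK (Haenkenium, an extract of the plant Salvia haenkei) at 0.5 mg/kg/day in their water for 4 months, starting at 20 months of age, and 10 mice had received none. Both sexes were equally represented (5 males and 5 females per group), and in either group 2 males and 2 females belonged to experimental batch 1 and 3 males and 3 females to experimental batch 2. According to the methods, the batches were separate sequencing experiments, and mice were either bought or bred in house. Which mice were which is not stated, so sequencing, origin and handling of the animals cannot be told apart within the batch difference.

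Macrophages are phagocytes that occupy skeletal muscle in several states. Resident macrophages lie between the fibres and along vessels, clear debris through scavenger receptors and renew themselves in part without supply from the blood, while monocytes that enter after injury become inflammatory macrophages and later take on repair functions. Survival of macrophages in most tissues depends on signals through the receptor encoded by Csf1r, and the transcription factor PU.1, a member of the ETS family, drives much of their gene programme, often together with RUNX and AP-1 factors. Of the 10 genes, 6 mark macrophages broadly (Cd68, Adgre1, Csf1r, Tyrobp, Lyz2 and Ctss), 2 mark resident macrophages (Mrc1 and Cd163) and 2 mark inflammatory or lipid-associated ones (Itgax and Lgals3). None of them is exclusive to macrophages, since Lyz2 is also found in neutrophils, Itgax in dendritic cells and Lgals3 in several cell types.

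Libraries held 13900180 to 30469644 counts per mouse (13994011 to 30469644 in batch 1 and 13900180 to 17951683 in batch 2). Muscle fibre genes were abundant in all 20 mice, with Acta1, the skeletal actin, at 22575 to 33493 CPM (counts scaled to a common library size), Ckm, the muscle creatine kinase, at 15020 to 24956 CPM and Myh4, a fast myosin heavy chain, at 42286 to 77658 CPM. Macrophage genes were rare by comparison, and the counts behind the members were accordingly small, from 1 count for Itgax to 2380 counts for Lyz2 in a single mouse. Bulk RNA does not separate fewer macrophages from less RNA per macrophage, so every difference below concerns the level in the whole muscle. Apart from Csf1r, Mrc1 and Cd163, the members also stand in the paper's list of 338 genes higher in old than in young muscle. It required an adjusted p below 0.05 and a log2 fold change above 1, so genes outside it may still differ with age. That list was drawn up with the same untreated mice, so it is not independent evidence of a direction in them.

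Promoters of 7 members were listed in RefSeq (GRCm38.p6), each with 250 bases before and 50 bases after the start of the transcript. Those of Cd68 and Ctss, which differed most between the batches, and of Mrc1 and Cd163, the resident markers, are shown 5′ to 3′ so that genes at both ends of the range of responses below can be compared, with matches to the motifs GAGGAA (a core of PU.1 and other ETS sites), TGTGGT (RUNX) and TGANTCA (AP-1) on either strand in capitals.
Cd68 (chr11:69666121-69666420, minus strand): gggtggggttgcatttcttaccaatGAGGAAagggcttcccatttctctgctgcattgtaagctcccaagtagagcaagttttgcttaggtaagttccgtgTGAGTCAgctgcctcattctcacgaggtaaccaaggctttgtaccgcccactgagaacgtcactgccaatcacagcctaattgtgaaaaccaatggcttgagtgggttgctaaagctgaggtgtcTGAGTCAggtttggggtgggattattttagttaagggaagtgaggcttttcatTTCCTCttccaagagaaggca
Ctss (chr3:95526536-95526835, plus strand): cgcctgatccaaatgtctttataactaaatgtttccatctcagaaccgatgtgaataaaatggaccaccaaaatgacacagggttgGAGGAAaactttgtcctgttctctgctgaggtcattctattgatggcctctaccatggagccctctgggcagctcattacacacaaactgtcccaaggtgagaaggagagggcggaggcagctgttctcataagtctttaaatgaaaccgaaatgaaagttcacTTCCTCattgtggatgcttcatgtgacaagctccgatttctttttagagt
Mrc1 (chr2:14229164-14229463, plus strand): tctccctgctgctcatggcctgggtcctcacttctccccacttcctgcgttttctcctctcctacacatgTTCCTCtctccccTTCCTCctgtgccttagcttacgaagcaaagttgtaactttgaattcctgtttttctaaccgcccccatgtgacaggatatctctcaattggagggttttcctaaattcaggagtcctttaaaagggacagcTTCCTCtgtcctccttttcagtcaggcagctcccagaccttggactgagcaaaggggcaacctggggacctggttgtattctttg
Cd163 (chr6:124304401-124304700, plus strand): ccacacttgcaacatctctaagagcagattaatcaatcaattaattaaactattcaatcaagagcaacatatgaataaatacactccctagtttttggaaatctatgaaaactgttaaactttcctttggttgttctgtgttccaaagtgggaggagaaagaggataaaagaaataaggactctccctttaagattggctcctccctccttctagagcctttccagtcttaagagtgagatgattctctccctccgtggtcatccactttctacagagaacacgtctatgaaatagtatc
GAGGAA or its reverse complement occurred in the promoters of 3 of the 7 members, at 2 places in Cd68, 2 in Ctss and 3 in Mrc1, against 28.3% of the 32851 promoters in the table. TGTGGT or its reverse complement was found in 2 of 7 (Lyz2 and Itgax), against 16.8% of all promoters, and TGANTCA in 2 of 7 (Cd68, at 2 places, and Itgax), against 7.81%. Cd163 and Lgals3 held none of these letters in this window. The matches are a description of the sequence and were not tested for binding.

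Per kilobase of exon, Lyz2, which encodes the lysozyme of myeloid cells, was the most abundant member, with a median of 27.3 CPM per kilobase over the 20 mice, and Itgax, which encodes the integrin alpha X chain, the least abundant, with a median of 0.0969. The other medians on this scale were 3.84 for Lgals3, 3.83 for Ctss, 2.61 for Tyrobp, 2.26 for Cd68, 1.63 for Csf1r, 1.55 for Mrc1, 1.25 for Cd163 and 0.665 for Adgre1. Lyz2 exceeded Lgals3 in 20 of 20 mice, by 2.65 ± 0.49 (SD) in log2 of the per-kilobase level, and Adgre1 exceeded Itgax in 20 of 20 mice. Some neighbours in the middle of the order were not separated. Lgals3 exceeded Ctss in 9 of 20 mice, Tyrobp exceeded Cd68 in 11 of 20 and Csf1r exceeded Mrc1 in 11 of 20. Others kept their order in more mice, with Ctss above Tyrobp in 17 of 20 and Mrc1 above Cd163 in 18 of 20. Cd163 exceeded Adgre1 in 15 of 20 and Cd68 exceeded Csf1r in 13 of 20. Lyz1, a near-identical copy of Lyz2, had 759 counts over all mice against 17501 for Lyz2, and how the authors assigned reads that fit both genes is not given, so the split between them is uncertain.

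Mice spread widely in all members. Cd68 ranged from 0.387 CPM in untreated female 1 to 29.4 CPM in untreated male 4, a 75.9-fold range, and Ctss from 1.85 CPM in untreated male 2 to 56.7 CPM in untreated male 5, a 30.7-fold range. Mrc1 had the narrowest range, 8.10-fold, from 2.73 CPM in HK male 1 to 22.1 CPM in untreated male 4. The mice at the top were batch 2 males for all 10 members, and the mice at the bottom belonged to batch 1. Of the variance of log2 CPM over the mice, 36.2% (Itgax) to 65.1% (Lyz2) lay between the batches, whereas 0.0104% (Itgax) to 7.63% (Cd163) lay between treated and untreated mice.

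**Figure D1:**
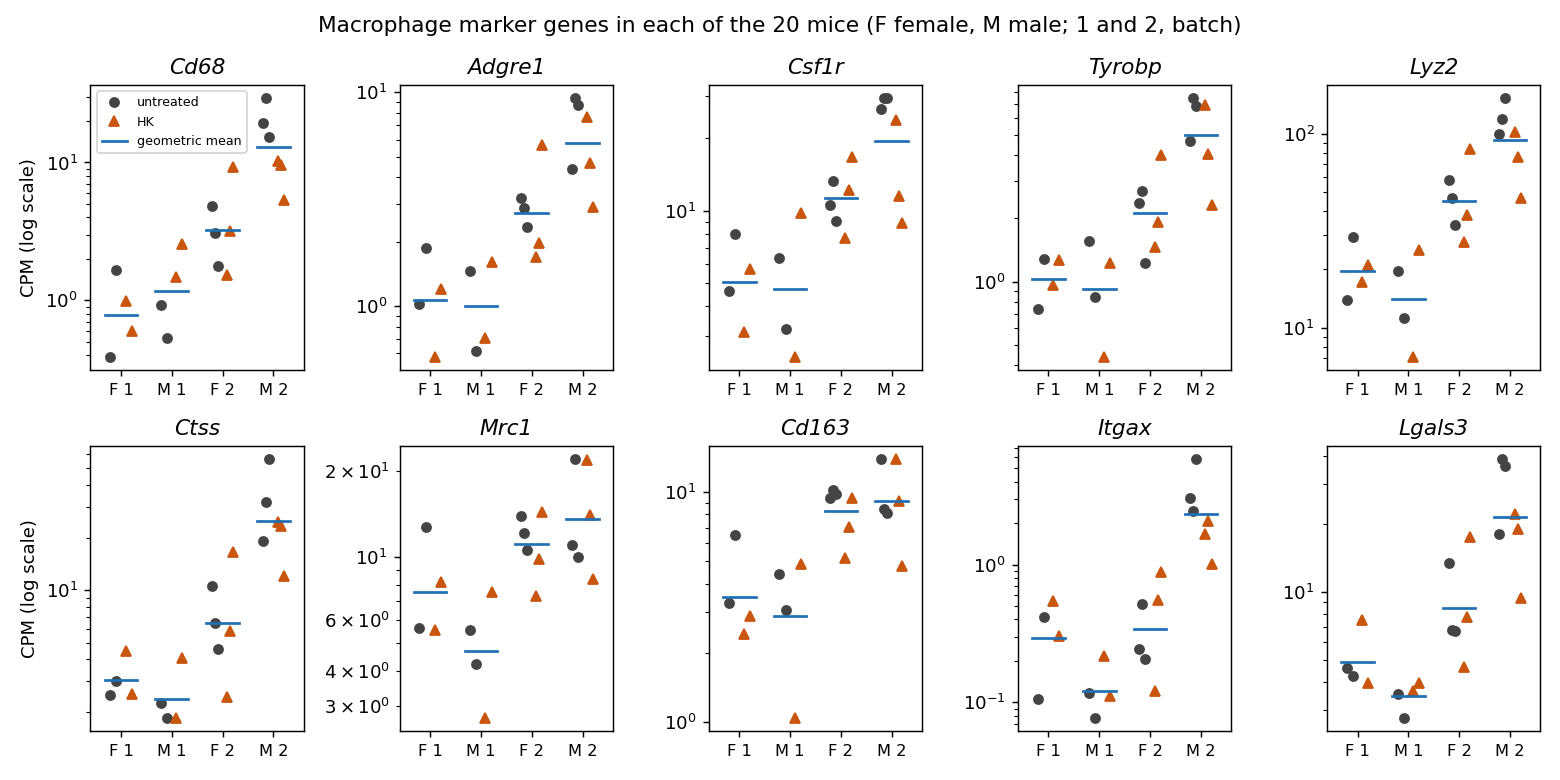
Level of each marker gene in CPM on a log axis, for females (F) and males (M) of batch 1 and batch 2, with circles for untreated mice, triangles for HK-treated mice and a bar at the geometric mean of each column. Batch 2 males form the highest column for all 10 genes, and Cd68 there reaches 29.4 CPM.

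The first comparison set the 12 mice of batch 2 against the 8 mice of batch 1. All 9 members that passed the filter on low counts were higher in batch 2, by 1.98-fold (Mrc1) to 6.65-fold (Cd68), where 19.0% of the 12923 genes tested were called higher (edgeR quasi-likelihood test, Benjamini-Hochberg adjusted p below 0.05, with sex and treatment as covariates). Their median log2 fold change was 1.75, against 0.01 over all genes tested. Itgax did not pass the filter and is described apart below. Between batches 4720 genes were called in total, so the members moved within a broad difference between the batches.

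Gene positions are given on GRCm38, on the plus strand unless stated. Among the genes of lysosomes and secretion, Cd68 (ENSMUSG00000018774, chr11:69664213-69666153, minus strand), a glycoprotein of late endosomes and lysosomes, was at 0.387 to 2.58 CPM in batch 1 (median 0.960) and at 1.52 to 29.4 CPM in batch 2 (median 7.31). Ctss (ENSMUSG00000038642, chr3:95526786-95556403), the protease cathepsin S that trims invariant chain in antigen presentation, was at 1.85 to 4.45 CPM in batch 1 (median 2.52) and at 2.43 to 56.7 CPM in batch 2 (median 14.2). Lyz2 (ENSMUSG00000069516, chr10:117277331-117282321, minus strand) was at 7.05 to 29.2 CPM in batch 1 (median 18.4) and at 27.7 to 153 CPM in batch 2 (median 66.9). The batches overlapped only at their edges, with 10 of 12 batch 2 mice above every batch 1 mouse for Cd68 and 11 of 12 for Ctss and for Lyz2. The log2 fold changes were 2.73 (SE 0.43, adjusted p = 1.15e-04) for Cd68, 2.29 (SE 0.42, adjusted p = 4.32e-04) for Ctss and 1.90 (SE 0.31, adjusted p = 1.54e-04) for Lyz2. None of the 10 members had batches that did not overlap at all, a pattern seen with batch 2 on top in 1.14% of the genes tested.

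Surface and signalling genes followed. Adgre1 (ENSMUSG00000004730, chr17:57358691-57483527), an adhesion receptor long used to stain mouse macrophages, was at 0.576 to 1.86 CPM in batch 1 (median 1.11) and at 1.70 to 9.42 CPM in batch 2 (median 3.80). Csf1r (ENSMUSG00000024621, chr18:61100598-61132149), the receptor for the growth factors encoded by Csf1 and Il34, was at 2.46 to 9.74 CPM in batch 1 (median 5.17) and at 7.71 to 29.4 CPM in batch 2 (median 12.8). Tyrobp (ENSMUSG00000030579, chr7:30413760-30417585), the adaptor that passes on signals of activating receptors such as Trem2, was at 0.437 to 1.57 CPM in batch 1 (median 1.10) and at 1.23 to 7.50 CPM in batch 2 (median 3.36). Batch 2 mice lay above all of batch 1 in 11 of 12 cases for Adgre1, 9 of 12 for Csf1r and 10 of 12 for Tyrobp, and the log2 fold changes were 1.91 (SE 0.31, adjusted p = 1.50e-04), 1.52 (SE 0.28, adjusted p = 4.22e-04) and 1.75 (SE 0.30, adjusted p = 2.31e-04). Exons of Csf1r share 873 bases with Hmgxb3 on the other strand, and the use of strand in the counting is not given, so part of its reads may belong to that gene.

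The resident markers differed least. Mrc1 (ENSMUSG00000026712, chr2:14229392-14332057), the mannose receptor, was at 2.73 to 12.7 CPM in batch 1 (median 5.60) and at 7.29 to 22.1 CPM in batch 2 (median 11.6), a log2 fold change of 0.99 (SE 0.25, adjusted p = 0.00491). Cd163 (ENSMUSG00000008845, chr6:124304656-124330527), the scavenger receptor for haptoglobin-haemoglobin complexes, was at 1.04 to 6.53 CPM in batch 1 (median 3.18) and at 4.79 to 14.01 CPM in batch 2 (median 9.29), a log2 fold change of 1.36 (SE 0.24, adjusted p = 3.06e-04). For Mrc1 only 5 of 12 batch 2 mice exceeded all of batch 1, against 10 of 12 for Cd163. The 95% intervals of the log2 fold change were 0.46 to 1.51 for Mrc1 and 1.84 to 3.62 for Cd68, which do not overlap, although the difference between genes was not tested.

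For the inflammatory markers, Lgals3 (ENSMUSG00000050335, chr14:47367751-47386160), which encodes the sugar-binding protein galectin-3, was at 2.77 to 7.49 CPM in batch 1 (median 3.97) and at 4.67 to 39.0 CPM in batch 2 (median 15.5), a log2 fold change of 1.74 (SE 0.35, adjusted p = 8.60e-04). Itgax (ENSMUSG00000030789, chr7:128129547-128150657), which pairs with the beta-2 integrin chain on macrophages and dendritic cells, was at 0.0769 to 0.544 CPM in batch 1 (median 0.167) and at 0.121 to 5.87 CPM in batch 2 (median 0.953). These levels of Itgax rest on 1 to 17 counts per mouse in batch 1 and 2 to 91 in batch 2. With a filter based on the design matrix, added after Itgax was seen to fail the other one, its log2 fold change was 2.10 (SE 0.57, adjusted p = 0.00719), in a fit where 18.2% of 13626 genes were called higher in batch 2. Itgax passed that filter through the mice in which it was high, so its call there is given as a description.

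**Figure D2:**
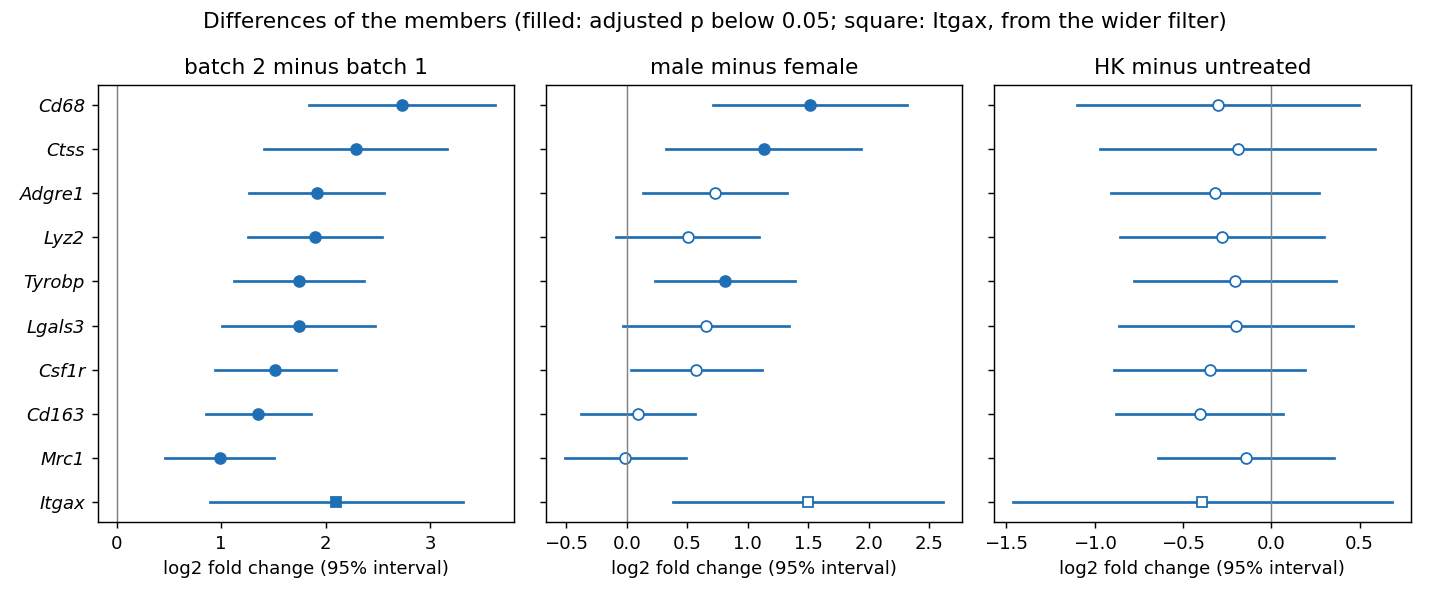
Log2 fold change of each member with its 95% interval in the comparison of batches, of sexes and of treatment, with filled symbols for an adjusted p below 0.05 and a square for Itgax, fitted with the filter by the design matrix. All batch differences lie above 0, from 0.99 for Mrc1 to 2.73 for Cd68, while all treatment intervals include 0.

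The batch difference was present in both sexes and larger in males by point estimate. In males alone all 9 members were called higher in batch 2 (15.7% of genes), with log2 fold changes from 1.51 (Mrc1) to 3.40 (Ctss), and in females 4 of 9 were called (Cd68, Adgre1, Lyz2 and Cd163, against 4.46% of genes), with log2 fold changes from 0.51 (Mrc1) to 2.13 (Cd68). These values come from a model with a batch difference for each sex, fitted after the high values of batch 2 males were seen. When the treatment groups were fitted apart, 6 of the 7 members that passed the filter were called in untreated mice and 5 of the 8 that passed in HK-treated mice, all with higher levels in batch 2. Of all genes, 1693 of 11554 were called in either direction in untreated mice and 1079 of 11504 in HK-treated mice.

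The second comparison was between the sexes. Over both batches, Cd68 was 2.86-fold higher in males (log2 fold change 1.51, SE 0.39, adjusted p = 0.00969), Ctss 2.19-fold (1.13, SE 0.39, adjusted p = 0.0497) and Tyrobp 1.76-fold (0.81, SE 0.28, adjusted p = 0.0497), where 9.52% of the genes tested were called higher in males. The calls of Ctss and Tyrobp lay at the threshold, and each was lost in 14 of the 20 fits that left out 1 mouse. Log2 fold changes of the members that did not pass were 0.73 for Adgre1, 0.65 for Lgals3, 0.57 for Csf1r and 0.50 for Lyz2. Both resident markers were near 0, with -0.01 (95% interval -0.51 to 0.49) for Mrc1 and 0.10 (-0.38 to 0.57) for Cd163.

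The sexes were then compared within each batch. In batch 2 Cd68 was at 5.37 to 29.4 CPM in the 6 males (median 12.7) and at 1.52 to 9.24 CPM in the 6 females (median 3.14). Ctss was at 11.98 to 56.7 CPM in males (median 23.9) and at 2.43 to 16.5 CPM in females (median 6.12), and Lgals3 at 9.37 to 39.0 CPM (median 20.6) and 4.67 to 17.5 CPM (median 7.25). For each of these genes 5 of 6 males lay above all 6 females, and the female with the highest level was HK female 5. In this batch 6 members were called higher in males of batch 2 (Cd68, Adgre1, Tyrobp, Lyz2, Ctss and Lgals3, against 6.59% of genes), with log2 fold changes from 1.02 (Lyz2) to 1.86 (Cd68). Csf1r (0.85, adjusted p = 0.0945), Mrc1 (0.37, adjusted p = 0.421) and Cd163 (0.21, adjusted p = 0.685) were not called.

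Itgax alone of the members separated the sexes in batch 2 completely, at 1.02 to 5.87 CPM in the 6 males and 0.121 to 0.888 CPM in the 6 females, on 14 to 91 and 2 to 15 counts. Such an arrangement with males on top was shown by 0 of the 9 members tested and 2.25% of the genes tested, which do not include Itgax. In batch 1 Itgax was at 0.0769 to 0.218 CPM in the 4 males and 0.106 to 0.544 CPM in the 4 females, on 1 to 4 and 3 to 17 counts. No member was called between the sexes in batch 1, where 7.34% of genes were called in either direction, and 6 of the 9 log2 fold changes there were below 0, including Mrc1 (-0.63), Lgals3 (-0.54) and Lyz2 (-0.34).

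Whether the sex difference itself differed between batches was tested with an interaction term, added after the batch 2 males were seen. The term was positive for all 9 members, with the largest values for Ctss (2.12, SE 0.66, adjusted p = 0.196), Lgals3 (1.86, SE 0.54, adjusted p = 0.177) and Lyz2 (1.36, SE 0.50, adjusted p = 0.265). After adjustment no member and 0% of the genes tested were called with a larger male excess in batch 2, so a difference between the batches in the sex effect was not shown. At an unadjusted p below 0.05, 5 of 9 members (Tyrobp, Lyz2, Ctss, Mrc1 and Lgals3) and 6.43% of all genes had such a term.

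Resident and inflammatory markers were then set against each other within each mouse, as the mean log2 CPM of Mrc1 and Cd163 minus that of Itgax and Lgals3. This difference had no test, being a score over chosen genes. In batch 2 it was -0.69 to 1.48 in the 6 males (median 0.78) and 1.49 to 2.82 in the 6 females (median 2.42). Every male lay below every female, although the nearest male and female were almost equal. This score includes Itgax, at 2 to 15 counts in these females. Without Itgax the sexes of batch 2 overlapped. Log2 CPM of Mrc1 minus that of Lgals3 was -1.84 to -0.02 in males and -0.28 to 0.83 in females. For Cd163 minus Lgals3 it was -2.19 to -0.36 and -0.88 to 0.59. In batch 1 the score was 0.70 to 2.71 in the 4 males (median 2.42) and 0.76 to 2.61 in the 4 females (median 2.04), and the sexes overlapped. Untreated male 5 had the lowest value and was the only mouse below 0, a point that is set by the formula and does not mark equal amounts of RNA.

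Over both sexes, the resident mean was 2.16 ± 0.68 (SD, n = 8) in batch 1 and 3.39 ± 0.43 (SD, n = 12) in batch 2, and the inflammatory mean 0.20 ± 0.50 and 1.94 ± 1.18. Their difference was 1.96 ± 0.80 in batch 1 and 1.45 ± 1.04 in batch 2, a change smaller than either SD. The means of this score, which includes Itgax at 1 to 17 counts per mouse in batch 1, went opposite ways in the sexes. In females the difference was 1.86 ± 0.79 in batch 1 and 2.27 ± 0.49 in batch 2, again a change smaller than either SD. In males it was 2.06 ± 0.92 in batch 1 and 0.63 ± 0.73 in batch 2. Single pairs varied, with log2 CPM of Cd163 minus that of Lgals3 at -0.36 ± 0.88 in batch 1 and -0.63 ± 0.90 in batch 2. For Mrc1 minus Lgals3 it was 0.52 ± 0.69 and -0.15 ± 0.75. Split by sex, the mean of Mrc1 minus Lgals3 fell from 0.61 to 0.37 in females and from 0.43 to -0.66 in males. That of Cd163 minus Lgals3 rose from -0.48 to -0.04 in females and fell from -0.24 to -1.23 in males. Against the broad marker Cd68, log2 CPM of Mrc1 minus that of Cd68 was 2.48 ± 0.93 in batch 1 and 0.90 ± 1.10 in batch 2. It was lower in males in both batches, at 3.08 ± 0.57 in females against 1.89 ± 0.87 in males of batch 1. In batch 2 it was 1.72 ± 0.65 in females against 0.07 ± 0.78 in males. Between treatments the resident minus inflammatory difference averaged 1.54 ± 0.74 with HK and 1.77 ± 1.18 without (SD, n = 10 for both), with overlapping ranges (0.70 to 2.71 and -0.69 to 2.82).

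**Figure D3:**
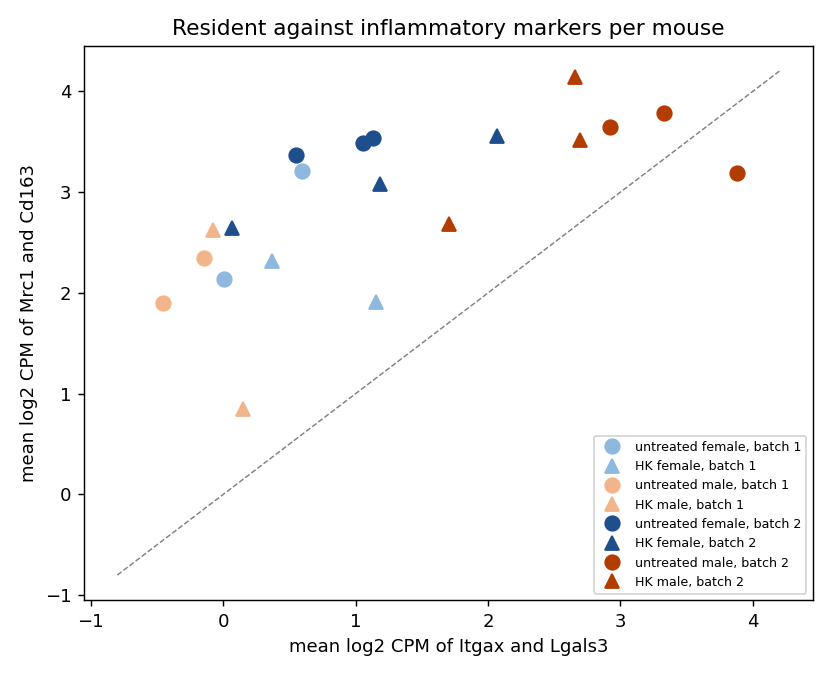
Mean log2 CPM of the resident markers Mrc1 and Cd163 (vertical) against that of the inflammatory markers Itgax and Lgals3 (horizontal) in each mouse, with the dashed line at equal values, circles for untreated and triangles for HK-treated mice. The 6 batch 2 males have inflammatory means of 1.71 to 3.88, a range that also holds HK female 5 at 2.07, and 1 of these males lies below the line.

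The members rose and fell together from mouse to mouse after batch, sex and treatment had been removed from their log2 CPM. These were removed as separate terms, so a sex difference that was unlike between the batches stayed in the values, also within each batch. Such a term held 1.17% (Cd163) to 29.6% (Itgax) of the variance of log2 CPM, with 15.7% for Lgals3 and 14.4% for Ctss. Its part in the single pairs was not tested. All 45 pairs correlated positively over the 20 mice, with a median Pearson r of 0.745 and a range from 0.206 (Cd163 and Itgax) to 0.945 (Ctss and Lgals3). Of the 45 pairs, 40 passed an adjusted p of 0.05 for Pearson's r and 41 for Spearman's rho (two-sided permutation within batch, 100000 resamples, Benjamini-Hochberg over the 45 pairs). The relation held within each batch, with a median r of 0.700 in the 8 mice of batch 1 and 0.767 in the 12 mice of batch 2, and the median was 0.712 when the 2 mice farthest from the median of the first gene of a pair were left out. All values share the libraries' depth and scaling, and the genes of these pairs are not independent of each other.

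Ctss and Lgals3 were the closest pair (r = 0.945, rho = 0.949, permutation p = 1e-05 for each, the smallest that 100000 resamples can give, adjusted p = 9.00e-05), with r = 0.939 in batch 1, 0.948 in batch 2 and 0.936 without the 2 farthest mice. Tyrobp and Lyz2 came next (r = 0.939, rho = 0.904, permutation p = 1e-05 for each, adjusted p = 9.00e-05), with 0.947, 0.943 and 0.917 under the same restrictions. Both pairs join genes of the broad or inflammatory classes. The 15 pairs among the 6 broad markers had r from 0.649 (Csf1r and Ctss) to 0.939, with a median of 0.804.

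Resident and inflammatory markers formed the loosest block. Mrc1 and Cd163 correlated with each other (r = 0.769, rho = 0.720, permutation p = 2.40e-04 and 7.00e-04, adjusted p = 5.14e-04 and 0.00131), as did Itgax and Lgals3 (r = 0.813, rho = 0.809, permutation p = 3.00e-05 and 6.00e-05, adjusted p = 1.35e-04 and 2.25e-04). Across the classes the median r of the 4 pairs was 0.319. Cd163 had r = 0.206 with Itgax (rho = 0.247, permutation p = 0.416 and 0.309, adjusted p = 0.416 and 0.316) and r = 0.222 with Lgals3 (rho = 0.191, permutation p = 0.346 and 0.426, adjusted p = 0.354 and 0.426). Mrc1 lay between, at r = 0.415 with Itgax (rho = 0.498, permutation p = 0.0830 and 0.0334, adjusted p = 0.0911 and 0.0366) and 0.551 with Lgals3 (rho = 0.614, permutation p = 0.0142 and 0.00567, adjusted p = 0.0163 and 0.00750). These 4 values were 0.112 to 0.476 within batch 1 and 0.302 to 0.695 within batch 2. Over its 9 pairs Cd163 had the lowest median r of all members, 0.575, and Lyz2 the highest, 0.795. Besides its pairs with Itgax and Lgals3, Cd163 missed the threshold with Cd68 (r = 0.393, adjusted p = 0.104 by permutation) and Ctss (r = 0.365, adjusted p = 0.122 by permutation).

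**Figure D4:**
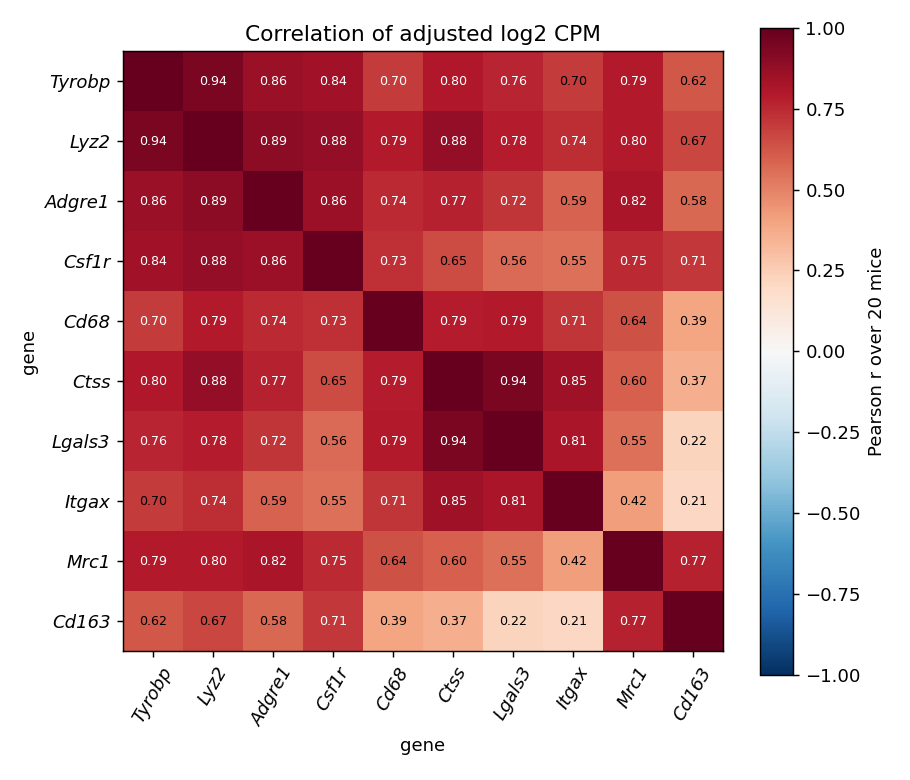
Pearson r between members over the 20 mice, computed on log2 CPM adjusted for batch, sex and treatment, with red for positive values on a scale from -1 to 1. The palest cells join Cd163 to Itgax and Lgals3 (0.21 and 0.22), and the darkest joins Ctss and Lgals3.

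Outside the list, the 10 genes with the highest mean r with the members among 12914 genes were Fcgr3 (0.817), C1qb (0.813), Fcgr2b (0.807), Mpeg1 (0.805), Cyba (0.803), Adam8 (0.802), Ms4a6c (0.801), Grn (0.801), C1qc (0.8002) and Kcnab2 (0.793). Fcgr3 and Fcgr2b encode receptors for the constant part of IgG, C1qb and C1qc chains of complement C1q, Mpeg1 the pore-forming protein perforin-2, Cyba a subunit of the phagocyte NADPH oxidase and Grn progranulin. The median of this value over all genes was -0.0227, and the 10 genes had mean r values of 0.747 to 0.830 within batch 1 and 0.764 to 0.835 within batch 2. They were picked over these same mice, so high values within the batches follow in part from the choice. Lyz1 ranked 882nd, with a mean r of 0.490. All 10 genes were also higher in batch 2, as were 19.0% of all genes tested, with log2 fold changes from 1.05 (Grn) to 2.40 (Ms4a6c). Their treatment differences ran from -0.40 (Kcnab2) to -0.16 (Mpeg1), none of them called.

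Genes that work with the members were counted in lists, to be read against the 19.0% of all genes called higher in batch 2. The gene of lowest p is named for each list. Of the Tyrobp and Fc receptor signalling list, all 9 of 14 genes that passed the filter were higher in batch 2 (median log2 fold change 1.49), with the lowest p for Fcgr3 (2.39, SE 0.27, adjusted p = 5.10e-06). Of 6 genes around Csf1r, 4 passed the filter and 3 were higher, with the lowest p for Csf2rb, the beta chain shared by receptors for several myeloid growth factors (1.19, SE 0.19, adjusted p = 1.26e-04). Of 12 cathepsins and other lysosomal genes all passed the filter and 8 were higher, with a median of 0.42, the lowest p for Ctsb, the protease cathepsin B (0.46, SE 0.06, adjusted p = 1.50e-05), and the largest change for Ctsk, cathepsin K (1.26). Of 8 leukocyte integrins, 6 passed, 4 were higher and Itgav was lower (-0.27, adjusted p = 0.0331), with the lowest p for Itgam, the alpha M chain that pairs with the same partner as Itgax (2.00, SE 0.32, adjusted p = 1.35e-04). Of 8 galectin genes, 6 passed and 3 were higher, with the lowest p for Lgals9 (0.79, SE 0.16, adjusted p = 8.88e-04).

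Further macrophage genes were counted in a pair of lists, again beside 19.0% of all genes. Of 15 resident macrophage genes, 14 passed the filter and 10 were higher (median 1.15), with the lowest p for Lyve1, the hyaluronan receptor of perivascular macrophages and lymphatic vessels (1.73, SE 0.28, adjusted p = 1.36e-04). Some genes of this list were more abundant than every member, such as Maf, with a mean of 297 CPM in batch 1 and 332 CPM in batch 2. Whether their RNA came from macrophages was not tested. Of 15 genes of recruited or lipid-associated macrophages, 8 passed and 5 were higher (median 0.77), with the lowest p for Cd14, a co-receptor for lipopolysaccharide (2.14, SE 0.37, adjusted p = 2.57e-04), and none was called lower. The 7 that did not pass included Trem2, Il1b, Tnf and Ly6c2, so genes that define newly arrived or lipid-laden macrophages were in part too rare to test.

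Genes of other cell types were counted against the same 19.0%, and their part in the differences of the members was not tested. All 8 fibro-adipogenic genes, which mark the connective tissue cells of muscle, were higher in batch 2 (median 0.83, lowest p for Ly6a at 0.90, SE 0.15, adjusted p = 2.20e-04, and largest change for Col1a1 at 1.72), with a summed level of 199.9 to 476 CPM in batch 1 and 354 to 1486 CPM in batch 2. Of 7 blood endothelial genes 2 were higher (median 0.07, lowest p for Cldn5 at 0.57), with sums of 74.9 to 229 and 122 to 242 CPM. Of 8 muscle fibre genes 2 were higher (median 0.08, lowest p for Myh1 at 0.49), with sums of 127042 to 171494 and 132237 to 175300 CPM. Both shares were near that of all genes. Lymphatic endothelial genes had 2 of 4 tested called higher (lowest p for Pdpn at 1.43), with sums of 5.41 to 14.6 and 8.64 to 18.3 CPM. Dendritic cell genes had 1 of 3 called (Clec10a at 0.94), with sums of 8.25 to 13.3 and 10.0 to 17.8 CPM. None of the 11 neutrophil and 12 lymphocyte genes passed the filter. Summed neutrophil levels were 0.328 to 0.821 CPM in batch 1 and 0.129 to 13.7 CPM in batch 2, with Elane at 0 in all mice. Summed lymphocyte levels were 0.422 to 12.1 and 0.460 to 3.36 CPM. In batch 2, neutrophil sums were lower in the males (0.129 to 2.73 CPM) than in most females (1.71 to 13.7 CPM), the reverse of the order of the members. Fibro-adipogenic sums were 441 to 1486 CPM in males and 354 to 639 CPM in females.

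The third comparison asked whether HK changed the markers. All 9 members tested were fitted lower with HK than without, with log2 fold changes from -0.41 (Cd163) to -0.14 (Mrc1), and none was called, nor was any of the 12923 genes (0% called, lowest adjusted p = 0.292 in edgeR). Their median was -0.28, against 0.00 over all genes, of which 51.0% had values above 0. No member reached an unadjusted p below 0.05, which 3.34% of genes did with lower values in HK (431 genes, and 355 with higher values). The members vary together from mouse to mouse, so their shared sign does not count as separate observations.

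Cd163 had the largest difference, at 1.04 to 14.01 CPM with HK (median 5.03) and 3.08 to 14.01 CPM in untreated mice (median 8.28), a log2 fold change of -0.41 (SE 0.23, 95% interval -0.88 to 0.07, adjusted p = 0.801). The groups overlapped over nearly their whole range, and 7 of the 10 mice given HK had less than the median of the untreated mice. Csf1r was at 2.46 to 23.8 CPM with HK (median 9.30) and 3.23 to 29.4 CPM without (median 9.78), a log2 fold change of -0.35 (SE 0.26, interval -0.89 to 0.19). Cd68 was at 0.602 to 10.2 CPM (median 2.88) and 0.387 to 29.4 CPM (median 2.44), with a fitted value of -0.30 (SE 0.38, interval -1.10 to 0.50), although the HK median was the higher and 4 of the 10 mice given HK had less than the other group's median. The 3 highest values of Cd68 all belonged to untreated males of batch 2, at 29.4, 19.4 and 15.3 CPM. Itgax had a log2 fold change of -0.39 (SE 0.51, adjusted p = 0.914) with the filter by the design matrix.

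The direction was not shared by the batches or the sexes for all members. In batch 2 all 9 values were below 0 (median -0.39), whereas in batch 1 Cd68 (0.42), Ctss (0.39) and Lgals3 (0.32) were above 0. In males 8 of 9 were below 0 (median -0.53, Mrc1 at 0.04), and in females 5 of 9 (median -0.04), with Cd163 lowest at -0.62. Interactions of treatment with batch were not called for any member or for 0% of all genes, and those of treatment with sex likewise for 0%, with 95% intervals as wide as -2.79 to 0.75 (Cd68, treatment by batch), so that differences between subgroups were not detectable with these numbers of mice. Without a filter 502 of 30096 genes were called between treatments, among them Csf1r (-0.33, SE 0.09, adjusted p = 0.0255), Lyz2 (-0.27, SE 0.07, adjusted p = 0.0171) and Cd163 (-0.39, SE 0.11, adjusted p = 0.0341). The size of these differences hardly moved, and the calls came with smaller SEs than the filtered fit gave (0.26, 0.28 and 0.23). DESeq2 called 6 genes and no member.

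Genes of the related lists showed no called difference between treatments either. Maf, named next, had a mean level above that of every member, and the cells it came from were not tested. The lowest unadjusted p-values of edgeR in each list were those of Maf in the resident list (0.33, p = 0.00591), Ccr2, the chemokine receptor of inflammatory monocytes, in the recruited list (-0.78, p = 0.0291), Il34 (-0.30, p = 0.0574), Fcer1g (-0.36, p = 0.168), Ctsh (-0.26, p = 0.134), Itgam (-0.37, p = 0.212), Lgals1 (-0.15, p = 0.124) and Clec10a (-0.18, p = 0.336), where the first value is the log2 fold change. Genes above 0 with HK, against 51.0% of all genes tested, were 4 of 14 in the resident list and 2 of 8 in the recruited list. They were 0 of 4 around Csf1r, 1 of 9 in Tyrobp and Fc receptor signalling and 0 of 12 in the lysosomal list. Among leukocyte integrins they were 3 of 6, among galectins 2 of 6 and among dendritic cell genes 2 of 3. In lists of other cells, 0 of 8 fibro-adipogenic genes were above 0 (median -0.29, lowest edgeR p for Cd34 at -0.35, p = 0.0470). The same held for 0 of 7 blood endothelial genes (median -0.26, lowest edgeR p for Kdr at -0.39, p = 0.0493). It held for 1 of 4 lymphatic genes (lowest edgeR p for Reln at 0.35, p = 0.142) and 4 of 8 muscle fibre genes (median 0.03, lowest edgeR p for Mb at -0.23, p = 0.0333). Medians of the fibro-adipogenic and endothelial lists were thus about as low as that of the members.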

How the data were processed

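Total RNA of 20 gastrocnemius muscles had been depleted of ribosomal RNA and sequenced. The authors aligned the reads with STAR 2.6.1c to GRCm38.p6 and deposited raw counts per gene of the GENCODE M25 annotation. The counting tool, its use of strand and its treatment of shared reads are not stated in the methods or labels. Symbols were matched to 55141 of 55401 identifiers through GENCODE M21, and the 260 others held 0.00127% of counts. Counts were tested with edgeR 4.0.16 (R 4.3.3; TMM scaling, filterByExpr by treatment group, quasi-likelihood test with batch, sex and treatment as terms, 12923 genes, Benjamini-Hochberg adjustment), with DESeq2 1.42.0 as an alternative, and the fit was tested on simulated data. Correlations used log2 CPM with a prior count of 2 and permutation within batch (scipy 1.17.1). Each sample is a separate mouse, and p-values measure the spread between these mice. Counts of mice of like group, sex and batch were checked for duplicates, with chi-square values of 8.06 to 49.6 per degree of freedom, so each was used as a separate sample. Same-numbered treated and untreated mice were not paired (correlations of deviations -0.472 to 0.210). The members and lists were chosen with earlier results of these data known. Genes named are the members, the 10 most alike genes, the gene of lowest p per list and comparison, Lyz1 and fibre markers, and untested list genes, Ctsk, Col1a1 and Itgav were named after their values were seen.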

Additional observations from a re-analysis of the deposited data

Results flagged for a closer look

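With batches and sexes pooled, no marker gene had a mouse far from the others of its treatment group. In 20 combinations of gene and treatment group, the gap of the highest or lowest mouse stayed within 0.466 of the range of its 10 mice in each. The difference between the batches widens that range, so a mouse extreme within its own batch can be missed by this rule.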

How the results depend on the processing

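All 9 members tested stayed called higher in batch 2 in each of the 20 fits without 1 mouse, without a filter, with DESeq2, and in males alone. Some fits on part of the mice gave fewer calls than the 4720 of 12923 genes and 9 members in all mice. Untreated mice alone gave 1693 of 11554 genes, and HK mice alone 1079 of 11504 genes and 5 members. Females alone gave 1359 of 13085 genes and 4 members. Adgre1, called in females in the model of both sexes, was not among these 4 (edgeR adjusted p = 0.0508). That model called 4023 of 12923 genes between the batches in males and 1149 in females. Sex calls were less stable, with 1 of the 3 members kept under DESeq2 size factors, 1 under the filter by the design matrix, 7 without a filter, 0 in batch 1 alone, and 1 to 4 without 1 mouse each. Genes called between the sexes numbered 1266 in batch 1 alone and 843 in batch 2 alone. In batch 1 alone the sex difference turned for Tyrobp (-0.023), Lyz2 (-0.35), Ctss (-0.32), Cd163 (-0.088) and Lgals3 (-0.56), and in batch 2 alone for Mrc1 (0.35). Between treatments, 502 of 30096 genes and 3 members were called without a filter, where fold changes of the members were alike but SEs smaller, and 6 genes by DESeq2, against 0, and 0 to 1 without 1 mouse each. In batch 1 alone the treatment difference turned for Cd68 (0.56), Ctss (0.45) and Lgals3 (0.33). Leaving out 1 mouse gave treatment values of -0.37 to 0.10 for Ctss (above 0 without untreated male 5) and -0.29 to 0.023 for Mrc1, and sex values of -0.14 to 0.11 for Mrc1 and -0.034 to 0.19 for Cd163. The median correlation was 0.873 without adjustment for batch, sex and treatment, against 0.745, and 0.715 to 0.770 without 1 mouse each. The cause of these changes was not tested. Replicate numbers did not pair the mice, and with the replicate block 0 genes were called between treatments, with members at -0.46 (Cd163) to -0.15 (Mrc1). The sex fits within each batch, the batch fits within each sex, the sex by batch term and the design-matrix filter were added after seeing the data. Depth limits Itgax most, at 1 to 91 counts per mouse.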
